A study of Homo sapiens with 12 samples.

Results

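The genes described here make sterols and fatty acids or control their making. They are the 38 rows of the deposited count table whose gene name stood on a list of 23 sterol genes and 15 fatty acid genes, out of 63241 genes in the table, and all 38 were found. The list was drawn up by pathway, with earlier results of these data known.

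Cells build cholesterol from acetyl-CoA by way of mevalonate, farnesyl pyrophosphate and squalene, and they build palmitate from acetyl-CoA by way of malonyl-CoA before lengthening it and adding double bonds. Both pathways answer to the transcription factors encoded by SREBF2 and SREBF1, which SCAP and INSIG proteins hold in the endoplasmic reticulum when sterols are plentiful and which activate synthesis genes when sterols are scarce. The brain makes its own cholesterol, since lipoproteins of the blood barely cross into it, and lipid supply has been studied in glioblastoma for that reason.

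Polyadenylated RNA was sequenced from T98G and U251, established human glioblastoma cell lines, in 4 groups of 3 libraries each. The groups were T98G cells labelled PEPD-OE, T98G cells labelled NC, U251 cells labelled PEPD-OE and U251 cells labelled NC. PEPD-OE stands for over-expression of PEPD (peptidase D, which splits dipeptides ending in proline) by the series title, and the labels neither expand NC nor name a vector, a promoter or a time after delivery. Whether the replicates came from separate cultures is not stated either, so p-values measure the spread between these libraries, which may be technical. In bulk RNA such as this, fewer cells of a kind and less RNA per cell cannot be told apart.

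The 12 libraries held 464056 to 924204 counts (median 772232), the lowest being T98G NC replicate 1, and 1 count in a library equalled 1.07 to 2.11 CPM (counts per 1000000 counts of a library scaled by the trimmed mean of M values, TMM). The TMM factors were 0.908 to 0.931 in the T98G PEPD-OE libraries and 1.05 to 1.08 in the T98G NC libraries. PEPD itself stood at 164 ± 9.50 CPM in T98G PEPD-OE and 11.0 ± 8.20 CPM in T98G NC cells, and at 175 ± 10.6 CPM in U251 PEPD-OE and 9.55 ± 3.44 CPM in U251 NC cells (SD, n = 3 each). Of 10 glial and mesenchymal markers, VIM, CD44, EGFR, GFAP, TNC, NES and CHI3L1 were detected in both lines, some at few counts. CHI3L1 had 9 counts over the T98G PEPD-OE libraries and 1 over the T98G NC libraries. SOX2 had 1 count over the T98G PEPD-OE libraries, 1 over the T98G NC libraries, 670 over the U251 PEPD-OE libraries and 912 over the U251 NC libraries. OLIG2 had 0 counts in all 12 libraries, and S100B had 0 in T98G, 3 over the U251 PEPD-OE libraries and 1 over the U251 NC libraries. Of 5 hepatocyte or adipocyte markers, from other cells rich in lipid synthesis, none reached the level needed for testing, and their summed level was 0 to 3.12 CPM in a library.

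Summed levels of several marker lists differed between PEPD-OE and NC libraries, and their part in the results below was not tested. The 10 glial and mesenchymal markers, of which 7 were tested, summed to 1211 to 1407 CPM in T98G PEPD-OE and 1644 to 1780 CPM in T98G NC libraries, and to 3557 to 4090 CPM in U251 PEPD-OE and 4924 to 5048 CPM in U251 NC libraries. Its members did not all move with the sum. In T98G, VIM averaged 474 CPM in PEPD-OE and 723 CPM in NC libraries, but GFAP 65.7 and 48.0 CPM. In U251, VIM averaged 1573 CPM in PEPD-OE and 2091 CPM in NC libraries, but EGFR 53.2 and 28.9 CPM. The 4 fibroblast markers, of which 2 were tested, summed to 541 to 666 CPM in T98G PEPD-OE and 243 to 309 CPM in T98G NC libraries, and to 309 to 399 CPM in U251 PEPD-OE and 505 to 541 CPM in U251 NC libraries. COL1A2, a collagen gene, averaged 534 CPM in T98G PEPD-OE and 224 CPM in T98G NC libraries, and PDGFRB 72.7 CPM in T98G PEPD-OE and 49.2 CPM in T98G NC libraries, while DCN had 0 counts in T98G. The 4 epithelial markers, of which 2 were tested, summed to 50.3 to 114 CPM in T98G PEPD-OE and 132 to 155 CPM in T98G NC libraries, and to 22.7 to 97.9 CPM in U251 PEPD-OE and 52.8 to 64.0 CPM in U251 NC libraries, which overlapped, with EPCAM at 0 throughout. The 5 macrophage and microglia markers, none of them tested, were uneven between replicates of T98G. They summed to 4.27 to 57.7 CPM in T98G PEPD-OE and 0 to 59.8 CPM in T98G NC libraries, and to at most 10.5 CPM in a U251 library. PTPRC had 28 counts over the T98G PEPD-OE libraries and 35 over the T98G NC libraries. The 4 endothelial markers, also untested, summed to 0 to 18.1 CPM in a library.

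Counts can stand under a gene opposite an abundant transcript. BEST1 held 486557 counts over the 12 libraries, against 10068 under FTH1, the ferritin heavy chain gene whose exons it overlaps on the other strand. MT-ND6 and MT-ND5, mitochondrial genes on opposite strands, held 233897 and 85223.5 counts per kb of exon over the 12 libraries. The kit kept the strand of each RNA, but the strand setting of the counting is not given in the sources used here. Which strand was counted was not tested. A value below is therefore what was counted under a gene's name, whether or not a gene is known on the other strand. Of the 38 genes, 15 share exon bases with a gene on the other strand by GENCODE release 29 on GRCh38, and 23 do not.

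In T98G cells, PEPD over-expression went with more counts under HMGCS1, INSIG1, SQLE and SREBF2 of the sterol genes and under FADS2, SCD, FADS1, ACSL4, FASN and ACSL3 of the fatty acid genes. It went with fewer counts under ACAT2, whose exons overlap genes on the other strand. In U251 cells HMGCS1, INSIG1 and SCD rose, with smaller fold changes than in T98G and calls that single libraries decided. Most enzymes between mevalonate and cholesterol were counted too rarely to be tested.

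A test compared the groups in 1 model over the whole table, edgeR's quasi-likelihood test with Benjamini-Hochberg adjustment over the 8773 genes that passed a filter on low counts. An adjusted p under 0.05 made a call. That filter kept 12 of the 23 sterol genes and all 15 fatty acid genes. The 12 are not the pathway as a whole, because a gene high in 1 group alone passes more easily. In T98G, 4 of the 12 sterol genes were higher in PEPD-OE than in NC cells and 1 was lower, and 6 of the 15 fatty acid genes were higher and 0 lower (0 lower also at an unadjusted p under 0.05, and by DESeq2). Of all genes tested, 17.7% were called higher and 14.7% lower in the same comparison. The median log2 fold change was 0.35 over the tested sterol genes (range -1.42 to 1.98) and 0.48 over the fatty acid genes (range -0.50 to 2.13), against 0.00 over all genes tested. In U251, 2 of the 12 sterol genes and 1 of the 15 fatty acid genes were higher and 0 of either class were lower, where 4.13% of all genes were called higher and 4.42% lower. At an unadjusted p under 0.05, 3 sterol and 4 fatty acid genes were higher in U251 by edgeR and 1 fatty acid gene, FADS3, was lower. The U251 medians were 0.34 for the sterol genes and 0.23 for the fatty acid genes, and that of all genes was 0.00. With DESeq2 in place of edgeR, 0 sterol and 0 fatty acid genes were called in U251 (3 and 2 higher and 0 lower at an unadjusted p under 0.05), but only 3 of the 23 sterol and 7 of the 15 fatty acid genes got an adjusted p there. Neither HMGCS1 nor INSIG1 was among them, and SCD had 0.131. DESeq2 gave 136 genes higher and 235 lower over the whole table in U251, against 362 and 388 with edgeR.

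**Figure D1:**
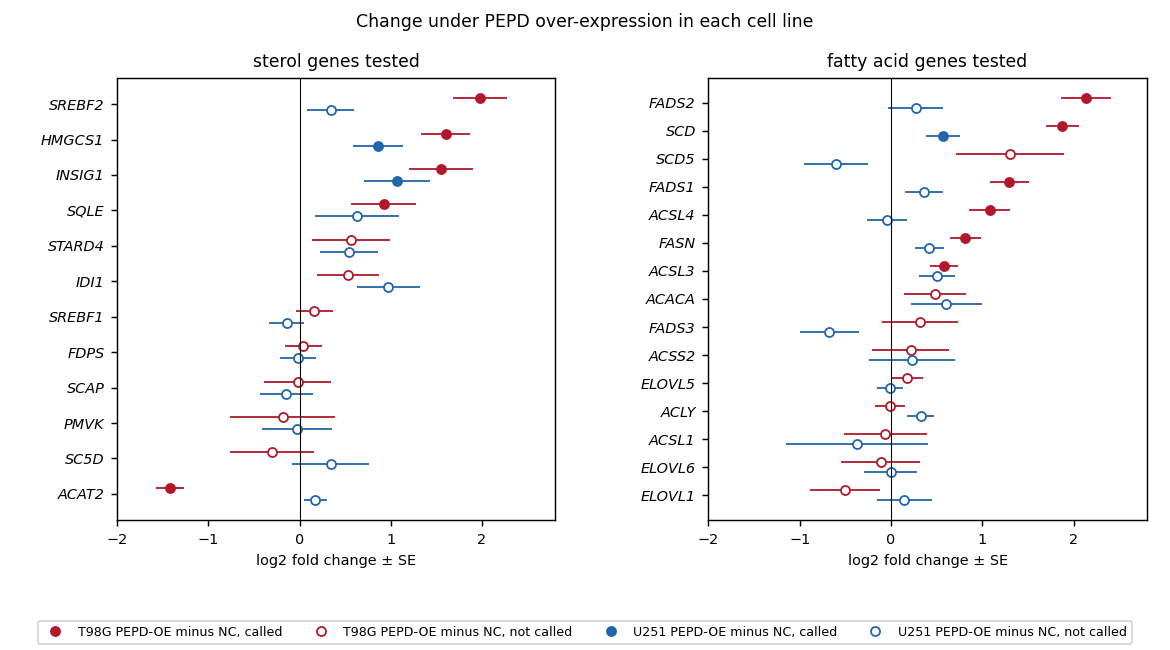
Log2 fold change of PEPD-OE over NC cells (horizontal axis, with SE bars) for each tested sterol gene (left) and fatty acid gene (right), in T98G (red) and U251 (blue). Filled points mark calls at an adjusted p under 0.05. In T98G the called genes lie between 0.58 and 2.13 except ACAT2 at -1.42, and in U251 the 3 called genes lie between 0.57 and 1.07.

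Among the controllers of the sterol pathway, SREBF2 (ENSG00000198911, GRCh38 chromosome 22, 41833079 to 41907308, plus strand) showed the largest rise. It had 65.1, 45.2 and 64.1 CPM in T98G PEPD-OE cells, against 14.8, 11.7 and 17.6 CPM in T98G NC cells. The lowest over-expressing library stood well above the highest control. The log2 fold change was 1.98 (SE 0.29, edgeR adjusted p = 5.61e-09), a 3.94-fold difference. In U251 it had 30.1, 58.5 and 24.6 CPM in PEPD-OE cells and 28.9, 30.9 and 29.5 CPM in NC cells. There the groups overlapped and replicate 2 of PEPD-OE stood far above its fellows, so that the log2 fold change of 0.34 (SE 0.26) was not called (adjusted p = 0.488). INSIG1 (ENSG00000186480), which encodes the anchor that holds the SCAP complex back, had 26.6, 40.5 and 41.3 CPM in T98G PEPD-OE cells, against 10.6, 10.4 and 15.1 CPM in T98G NC cells. The groups did not overlap, and the log2 fold change was 1.55 (SE 0.35, edgeR adjusted p = 0.000123). In U251 it had 21.1, 27.5 and 20.3 CPM in PEPD-OE cells, against 18.1, 3.86 and 10.2 CPM in NC cells. These groups were apart by a small margin and rest on 56 counts in PEPD-OE and 26 in NC cells, and the log2 fold change was 1.07 (SE 0.36, edgeR adjusted p = 0.0446). Without any of 4 libraries in turn, U251 PEPD-OE replicate 1 or 2 or U251 NC replicate 2 or 3, the adjusted p of INSIG1 in U251 was 0.0596 to 0.325. SREBF1, the paralogue of SREBF2 that serves fatty acid genes most, was not called in either line (log2 fold change 0.16 in T98G and -0.14 in U251), nor was SCAP (-0.02 in T98G and -0.14 in U251), the sterol sensor that escorts both factors.

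Of the mevalonate and squalene enzymes, HMGCS1 (ENSG00000112972, chromosome 5, 43289395 to 43313512, minus strand), which joins acetyl-CoA to acetoacetyl-CoA at the head of the pathway, rose in both lines. Its level was 71.0, 81.0 and 47.0 CPM in T98G PEPD-OE cells, against 25.3, 24.7 and 16.3 CPM in T98G NC cells. The groups did not overlap, and the log2 fold change was 1.60 (SE 0.27, edgeR adjusted p = 2.01e-07). In U251 it had 42.2, 48.9 and 28.8 CPM in PEPD-OE cells, against 32.5, 10.3 and 21.8 CPM in NC cells. The U251 groups overlapped, and the log2 fold change of 0.86 (SE 0.27, adjusted p = 0.0314 by edgeR) was lost without any of the same 4 libraries as for INSIG1, with adjusted p-values of 0.0784 to 0.315. SQLE (ENSG00000104549), the monooxygenase that turns squalene into its epoxide, had 23.7, 26.5 and 34.2 CPM in T98G PEPD-OE cells, against 21.1, 14.3 and 11.3 CPM in T98G NC cells. The groups were barely apart and the log2 fold change of 0.92 (SE 0.35, adjusted p = 0.0336 by edgeR) was lost without T98G PEPD-OE replicate 2 or 3 or T98G NC replicate 2 or 3, with adjusted p-values of 0.0527 to 0.180. Over all the alternative settings the adjusted p of SQLE in T98G reached 0.272.

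The other tested enzymes of that stretch showed no call. IDI1, the isomerase that makes dimethylallyl pyrophosphate, had 34.7, 22.7 and 21.4 CPM in U251 PEPD-OE cells, against 18.1, 6.44 and 14.1 CPM in U251 NC cells (log2 fold change 0.97, SE 0.34, edgeR adjusted p = 0.0575). In T98G its groups overlapped, with a log2 fold change of 0.53. FDPS, which makes farnesyl pyrophosphate, stood at 63.7 ± 11.0 CPM in T98G PEPD-OE and 61.0 ± 10.3 CPM in T98G NC cells, and at 59.9 ± 15.9 CPM in U251 PEPD-OE and 61.0 ± 5.61 CPM in U251 NC cells (SD, n = 3 each). PMVK, a kinase of mevalonate phosphate, SC5D, a late sterol desaturase, and STARD4, a carrier of cholesterol between membranes, had T98G log2 fold changes of -0.19, -0.30 and 0.56. All their groups overlapped in both lines.

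ACAT2 (ENSG00000120437, chromosome 6, 159760328 to 159779055, plus strand), the cytosolic thiolase that makes acetoacetyl-CoA, went the other way. It had 68.0, 70.1 and 111 CPM in T98G PEPD-OE cells, against 241, 205 and 228 CPM in T98G NC cells. Every over-expressing library lay below every control, and the log2 fold change was -1.42 (SE 0.15, edgeR adjusted p = 4.01e-15). In U251 the gene had 229, 224 and 238 CPM in PEPD-OE cells, against 197, 206 and 211 CPM in NC cells, a log2 fold change of 0.17 (SE 0.13) that was not called (adjusted p = 0.487). ACAT2 shares 397 exon bases with TCP1, a chaperonin subunit gene on the other strand that had 1.68 times its counts per kb. It shares 1458 with SOD2-OT1, a noncoding gene with 5 counts over the 12 libraries. TCP1 stood at 254 ± 15.4 CPM in T98G PEPD-OE and 267 ± 1.31 CPM in T98G NC cells (SD, n = 3 each), with a log2 fold change of -0.07 (edgeR adjusted p = 0.687). Release 29 also places 1141 exon bases of SOD2, the mitochondrial superoxide dismutase gene, opposite ACAT2. The SOD2 entry of the table carries another identifier and had a T98G log2 fold change of 0.75 (SE 0.45, adjusted p = 0.242 by edgeR).

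The 11 sterol genes under the filter had 13 to 92 counts each over all 12 libraries, with a median of 54. They are MVK and MVD, which act on mevalonate and its pyrophosphate, FDFT1, which makes squalene, and LSS, CYP51A1, TM7SF2, MSMO1, NSDHL, HSD17B7, EBP and DHCR7, which carry squalene to cholesterol. MSMO1, the sterol methyl oxidase, had 9, 5 and 10 counts in T98G PEPD-OE libraries and 1, 3 and 6 in T98G NC libraries. MVD had 9, 15 and 15 counts in T98G PEPD-OE libraries and 6, 9 and 7 in T98G NC libraries, and DHCR7, the last reductase, had 7, 7 and 7 counts in T98G PEPD-OE libraries and 1, 5 and 5 in T98G NC libraries. TM7SF2, a sterol reductase, had 0, 3 and 2 counts in U251 PEPD-OE libraries and 9, 7 and 5 in U251 NC libraries, while its T98G libraries held 1 count in PEPD-OE and 1 in NC cells. None of these was tested in the main model. DESeq2 gave unadjusted p-values of 0.113 for MSMO1, 0.170 for MVD and 0.193 for DHCR7 in T98G, and 0.0716 for TM7SF2 in U251. Between the control groups DESeq2 called TM7SF2 lower in T98G NC than in U251 NC cells (adjusted p = 0.0461).

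**Figure D2:**
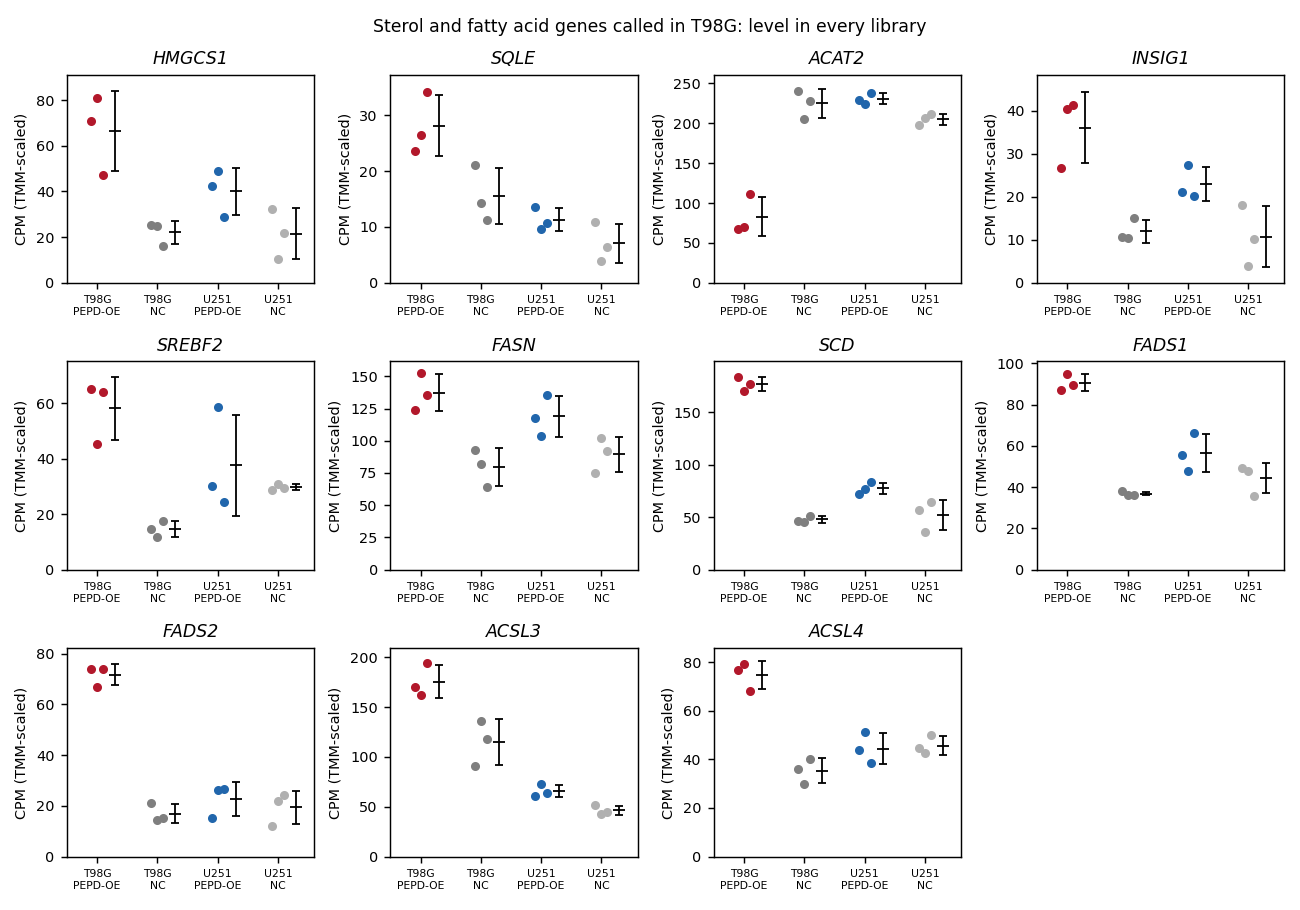
Level in every library (CPM on TMM-scaled libraries, vertical axes starting at 0) of the 11 genes called in T98G, with PEPD-OE and NC libraries of T98G and U251 as points and the mean ± SD (n = 3) beside them. In T98G the PEPD-OE points lie above the NC points for 10 genes and below them for ACAT2.

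The promoters shown first are those of SREBF2 and HMGCS1, the 2 sterol genes with the largest called rise. Promoter windows of RefSeq (build GRCh38.p14) run from 250 bases before the transcript start to 50 bases after it and were found for 34 of the 38 genes, 20 sterol and 14 fatty acid. ACAT2, SQLE, FDFT1 and FASN had none. Capitals mark matches on either strand to TCACNCCAC (sterol response element), CACGTG (E-box), CCAAT (NF-Y box, ATTGG on the other strand) and GGGCGG (Sp1 box, CCGCCC on the other strand), and matches may overlap. The SREBF2 window is chr22:41832855-41833154, plus strand, and lies inside the span of SREBF2-AS1. The HMGCS1 window, 1 of 2 in RefSeq, is chr5:43313363-43313662, minus strand. Where a gene had more than 1 window, the window shown was chosen by its number of matches, a choice that favours matches.
SREBF2: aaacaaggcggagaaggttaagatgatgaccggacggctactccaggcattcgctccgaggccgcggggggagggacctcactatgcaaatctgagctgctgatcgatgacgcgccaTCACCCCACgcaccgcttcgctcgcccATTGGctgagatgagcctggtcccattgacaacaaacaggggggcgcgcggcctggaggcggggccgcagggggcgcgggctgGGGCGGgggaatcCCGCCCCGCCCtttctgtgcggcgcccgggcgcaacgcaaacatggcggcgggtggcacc
HMGCS1: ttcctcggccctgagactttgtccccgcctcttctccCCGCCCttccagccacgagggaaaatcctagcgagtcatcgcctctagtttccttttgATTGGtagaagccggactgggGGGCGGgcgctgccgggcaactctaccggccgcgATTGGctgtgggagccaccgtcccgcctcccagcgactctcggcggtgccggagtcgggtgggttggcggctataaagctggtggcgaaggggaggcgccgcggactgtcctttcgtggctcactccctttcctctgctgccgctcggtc

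In the SREBF2 window the sterol response element begins at -133 and an NF-Y box at -106, counting the start as 0, and 3 Sp1 boxes follow at -23, -10 and -5. The HMGCS1 window holds NF-Y boxes at -155 and -100 and Sp1 boxes at -213 and -134. SREBF2 was the only sterol gene of the 20 with a match to the sterol response element, against 1.39% of 27305 genes with a window. NF-Y boxes were in 16 of the 20 (80%), against 39.7% of all genes, and Sp1 boxes in 19 of 20 (95%), against 48.3%. E-boxes were in 4 of 20, namely INSIG1, LSS, SC5D and SCAP, against 8.77% of all genes. These shares are descriptions with no test, and they say nothing of binding in these cells.

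Of the 5 desaturases tested, FADS2, SCD and FADS1 rose in T98G, and SCD5 and FADS3 were not called. FADS2 (ENSG00000134824, chromosome 11, 61792980 to 61867354, plus strand), which puts the first double bond into polyunsaturated fatty acids, had 74.0, 67.0 and 74.1 CPM in T98G PEPD-OE cells, against 21.1, 14.3 and 15.1 CPM in T98G NC cells. The groups stood far apart, and the log2 fold change was 2.13 (SE 0.27, edgeR adjusted p = 1.71e-11), 4.39-fold. In U251 the level was 15.1, 26.3 and 26.7 CPM in PEPD-OE cells and 12.04, 21.9 and 24.3 CPM in NC cells, groups that overlapped (log2 fold change 0.27, SE 0.30, edgeR adjusted p = 0.696). SCD (ENSG00000099194, chromosome 10, 100347124 to 100364834, plus strand), which makes oleate from stearate, had 183, 170 and 177 CPM in T98G PEPD-OE cells, against 46.4, 45.5 and 51.4 CPM in T98G NC cells. Its replicates lay close together, and the log2 fold change was 1.88 (SE 0.18, edgeR adjusted p = 2.40e-18), 3.67-fold. In U251 SCD had 72.3, 76.4 and 83.3 CPM in PEPD-OE cells, against 56.6, 36.1 and 64.0 CPM in NC cells. The U251 groups were apart, but the log2 fold change of 0.57 (SE 0.19, adjusted p = 0.0366 by edgeR) was lost without U251 PEPD-OE replicate 2 or 3 or U251 NC replicate 1 or 2, with adjusted p-values of 0.0684 to 0.330. FADS1 (ENSG00000149485), the next desaturase of the polyunsaturated chain, had 87.3, 95.0 and 89.8 CPM in T98G PEPD-OE cells, against 38.0, 36.4 and 36.4 CPM in T98G NC cells (log2 fold change 1.30, SE 0.21, edgeR adjusted p = 1.03e-07). In U251 FADS1 had 55.7, 47.8 and 66.2 CPM in PEPD-OE cells and 49.4, 47.7 and 35.9 CPM in NC cells. The FADS1 groups did not overlap in T98G and did in U251, where the log2 fold change was 0.36 (adjusted p = 0.334). FADS1 and FADS2 lie on opposite strands and share 490 exon bases, so counts of either can include reads of the other if strands were mixed.

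The remaining desaturases gave no call for PEPD. SCD5, a brain-expressed relative of SCD, had 14.8, 9.35 and 5.70 CPM in T98G PEPD-OE cells, against 2.11, 5.20 and 3.76 CPM in T98G NC cells. The groups were apart on 20 and 8 counts, and the log2 fold change was 1.30 (SE 0.59, edgeR adjusted p = 0.0816). In U251 SCD5 had 18.1, 15.5 and 11.7 CPM in PEPD-OE cells, against 19.3, 30.9 and 17.9 CPM in NC cells, groups that overlapped. FADS3, a desaturase of sphingoid bases, had log2 fold changes of 0.31 in T98G and -0.68 in U251, and its groups overlapped in both.

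The promoters of FADS2 and SCD, the 2 fatty acid genes with the largest called change, carry the same 2 short boxes in another arrangement. The FADS2 window, of 2 the one with more matches, is chr11:61816154-61816453, plus strand, and the SCD window is chr10:100346983-100347282, plus strand.
FADS2: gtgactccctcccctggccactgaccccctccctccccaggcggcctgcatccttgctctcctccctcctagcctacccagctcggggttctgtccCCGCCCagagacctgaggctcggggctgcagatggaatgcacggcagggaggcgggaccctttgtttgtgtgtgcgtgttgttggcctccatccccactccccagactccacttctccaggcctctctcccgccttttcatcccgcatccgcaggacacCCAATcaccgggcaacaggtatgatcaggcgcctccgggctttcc
SCD: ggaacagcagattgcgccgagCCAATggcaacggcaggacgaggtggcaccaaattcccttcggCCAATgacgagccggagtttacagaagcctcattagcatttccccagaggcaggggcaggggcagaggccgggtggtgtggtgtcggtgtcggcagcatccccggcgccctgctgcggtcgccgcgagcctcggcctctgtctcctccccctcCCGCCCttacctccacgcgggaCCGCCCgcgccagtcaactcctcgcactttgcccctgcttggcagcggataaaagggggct

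In the FADS2 window an Sp1 box begins at -154 and an NF-Y box at 5, past the start. In the SCD window NF-Y boxes begin at -229 and -186 and Sp1 boxes at -33 and -11. NF-Y boxes were in 11 of the 14 fatty acid genes with a window (78.6%) and Sp1 boxes in 13 (92.9%), shares like those of the sterol genes. ACSL1 alone had a match to the sterol response element and ELOVL5 alone an E-box (7.14% each).

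Of the 4 genes tested that supply acetyl-CoA and build palmitate, FASN alone was called in T98G. FASN (ENSG00000169710), the fatty acid synthase, had 124, 153 and 135 CPM in T98G PEPD-OE cells, against 92.8, 81.9 and 64.0 CPM in T98G NC cells. The groups were apart, and the log2 fold change was 0.82 (SE 0.17, edgeR adjusted p = 2.98e-05). In U251 FASN had 118, 104 and 136 CPM in PEPD-OE cells, against 74.6, 102 and 92.2 CPM in NC cells, apart but not called (log2 fold change 0.42, SE 0.16, edgeR adjusted p = 0.0841). ACLY, which cuts citrate into acetyl-CoA, was near level in T98G, with 110 ± 19.7 CPM in PEPD-OE and 110 ± 14.2 CPM in NC cells (SD, n = 3 each). In U251 ACLY stood at 142 ± 5.19 CPM in PEPD-OE and 114 ± 7.40 CPM in NC cells, with groups apart and no call (log2 fold change 0.32, edgeR adjusted p = 0.175). ACACA, the carboxylase that makes malonyl-CoA, had log2 fold changes of 0.48 in T98G and 0.60 in U251, and ACSS2, which makes acetyl-CoA from acetate, 0.21 and 0.23. None of these passed the test.

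Among the ligases that activate fatty acids, ACSL4 and ACSL3 rose in T98G. ACSL4 (ENSG00000068366), which favours arachidonate, had 76.9, 79.5 and 68.4 CPM in T98G PEPD-OE cells, against 35.9, 29.9 and 40.1 CPM in T98G NC cells. The groups were apart, and the log2 fold change was 1.08 (SE 0.22, edgeR adjusted p = 2.69e-05). In U251 ACSL4 had 43.7, 51.3 and 38.4 CPM in PEPD-OE cells and 44.5, 42.5 and 49.95 CPM in NC cells, groups that overlapped (log2 fold change -0.04). ACSL3 (ENSG00000123983), a ligase of lipid droplets, had 170, 162 and 194 CPM in T98G PEPD-OE cells, against 90.7, 136 and 118 CPM in T98G NC cells. The log2 fold change was 0.58 (SE 0.15, edgeR adjusted p = 0.00107), and in U251 it was 0.50 (SE 0.20, edgeR adjusted p = 0.096), with groups apart in both lines. ACSL1, a further ligase, and the elongases ELOVL1, ELOVL5 and ELOVL6 were not called in either line, with T98G log2 fold changes of -0.06, -0.50, 0.18 and -0.12.

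Summed over a class, the fatty acid genes stood at 1043 ± 62.8 CPM in T98G PEPD-OE and 624 ± 19.6 CPM in T98G NC cells, and at 775 ± 25.6 CPM in U251 PEPD-OE and 670 ± 16.0 CPM in U251 NC cells (SD, n = 3 each). The sterol genes summed to 556 ± 34.6 CPM in T98G PEPD-OE and 538 ± 10.9 CPM in T98G NC cells. ACAT2 alone made up much of that sum, and the other 22 sterol genes, a sum formed after the values were seen, stood at 473 ± 16.5 CPM in T98G PEPD-OE and 313 ± 8.08 CPM in T98G NC cells. In U251 the sum of all sterol genes was 630 ± 55.6 CPM in PEPD-OE and 536 ± 28.5 CPM in NC cells. Without ACAT2 it was 399 ± 61.4 CPM in U251 PEPD-OE and 331 ± 33.6 CPM in U251 NC cells, which overlapped. The sums follow the well-counted genes and carry no test.

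**Figure D3:**
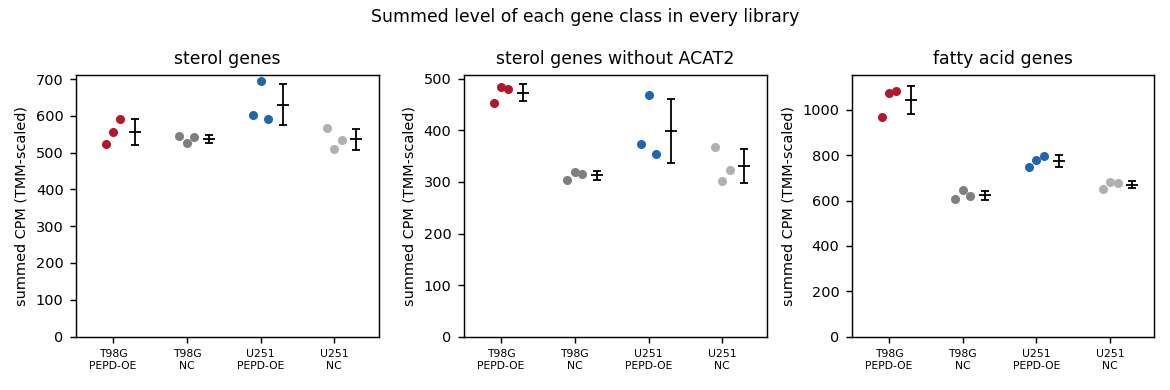
Summed CPM of the sterol genes (left), of the sterol genes without ACAT2 (middle) and of the fatty acid genes (right) in each library, with the mean ± SD (n = 3) beside the points. The fatty acid sum is 970 to 1083 CPM in T98G PEPD-OE libraries and 608 to 646 CPM in T98G NC libraries.

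Per kilobase of exon, the first 4 genes by mean stood in the same order in both control groups. ACAT2 stood first with 52.3 ± 4.17 CPM per kb in T98G NC and 47.7 ± 1.63 CPM per kb in U251 NC cells (SD, n = 3 each). ELOVL5 followed with 23.6 ± 1.10 CPM per kb in T98G NC and 36.1 ± 3.10 CPM per kb in U251 NC cells. ACLY came next, with 21.1 ± 2.72 CPM per kb in T98G NC cells, where its spread met that of ELOVL5, and 21.8 ± 1.42 CPM per kb in U251 NC cells. FDPS followed in both control groups, with 16.4 ± 2.78 CPM per kb in T98G NC and 16.4 ± 1.51 CPM per kb in U251 NC cells. In T98G NC cells its spread met that of ACSL3, the next gene, so the order of FDPS and ACSL3 is not settled there. Further down the order differed, with ACSL3 at 15.9 ± 3.17 CPM per kb in T98G NC and 6.40 ± 0.67 CPM per kb in U251 NC cells (SD, n = 3 each). In T98G PEPD-OE cells the order was SCD with 32.9 ± 1.27 CPM per kb, then ELOVL5 with 26.6 ± 7.37, ACSL3 with 24.2 ± 2.28, ACLY with 21.1 ± 3.77 and ACAT2 with 19.3 ± 5.65. The spreads of these neighbours meet. MVK and HSD17B7 stood under 1 CPM per kb in all 4 groups.

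Several genes opposite a sterol gene held far more counts than the sterol gene and rose in T98G PEPD-OE cells. These noncoding partners were picked after their values were seen. AC114947.2 (ENSG00000261604), which shares 703 exon bases with HMGCS1, had 14.2 times the counts per kb of HMGCS1 over the 12 libraries. It had 464, 480 and 425 CPM in T98G PEPD-OE cells, against 131, 147 and 161 CPM in T98G NC cells (log2 fold change 1.63, SE 0.13, edgeR adjusted p = 1.30e-24). In U251 it had 298, 353 and 339 CPM in PEPD-OE cells, against 165, 173 and 183 CPM in NC cells (log2 fold change 0.93, SE 0.12, edgeR adjusted p = 3.55e-10). Its groups were apart in both lines, and its fold changes lie close to those under HMGCS1, 1.60 and 0.86. IDI2-AS1, opposite IDI1 by 643 exon bases, had 160, 112 and 115 CPM in T98G PEPD-OE cells, against 33.8, 33.8 and 42.7 CPM in T98G NC cells (log2 fold change 1.79, SE 0.20, edgeR adjusted p = 4.45e-14). In U251 its log2 fold change was 0.49 (edgeR adjusted p = 0.0966), so IDI2-AS1 was called in T98G, where IDI1 was not.

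RUSC1-AS1, opposite FDPS by 693 exon bases and RUSC1 by 398, had 1117, 1116 and 1130 CPM in T98G PEPD-OE cells, against 684, 591 and 542 CPM in T98G NC cells. Its log2 fold change was 0.90 (SE 0.10, edgeR adjusted p = 3.09e-15), while that under FDPS was 0.04. SREBF2-AS1, opposite SREBF2 by 280 exon bases, had 191, 185 and 185 CPM in T98G PEPD-OE cells, against 120, 112 and 123 CPM in T98G NC cells (log2 fold change 0.66, SE 0.15, edgeR adjusted p = 0.000113). Both partners were apart in T98G and uncalled in U251, with log2 fold changes of 0.13 for RUSC1-AS1 and -0.25 for SREBF2-AS1. STARD4-AS1 overlaps STARD4 by 124 exon bases and NREP, a gene of regenerating nerve, by 888. It rose in T98G by 0.59 on the log2 scale (edgeR adjusted p = 7.99e-10) and fell by 0.71 in U251 (edgeR adjusted p = 3.30e-12). Under STARD4 itself the log2 fold changes were 0.56 and 0.55, neither of them called. ENSG00000288913, which the table describes as antisense to ELOVL6, had a log2 fold change of 1.18 in T98G (edgeR adjusted p = 0.0210) and -1.36 in U251 (edgeR adjusted p = 0.0676), while ELOVL6 was called in neither line.

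**Figure D4:**
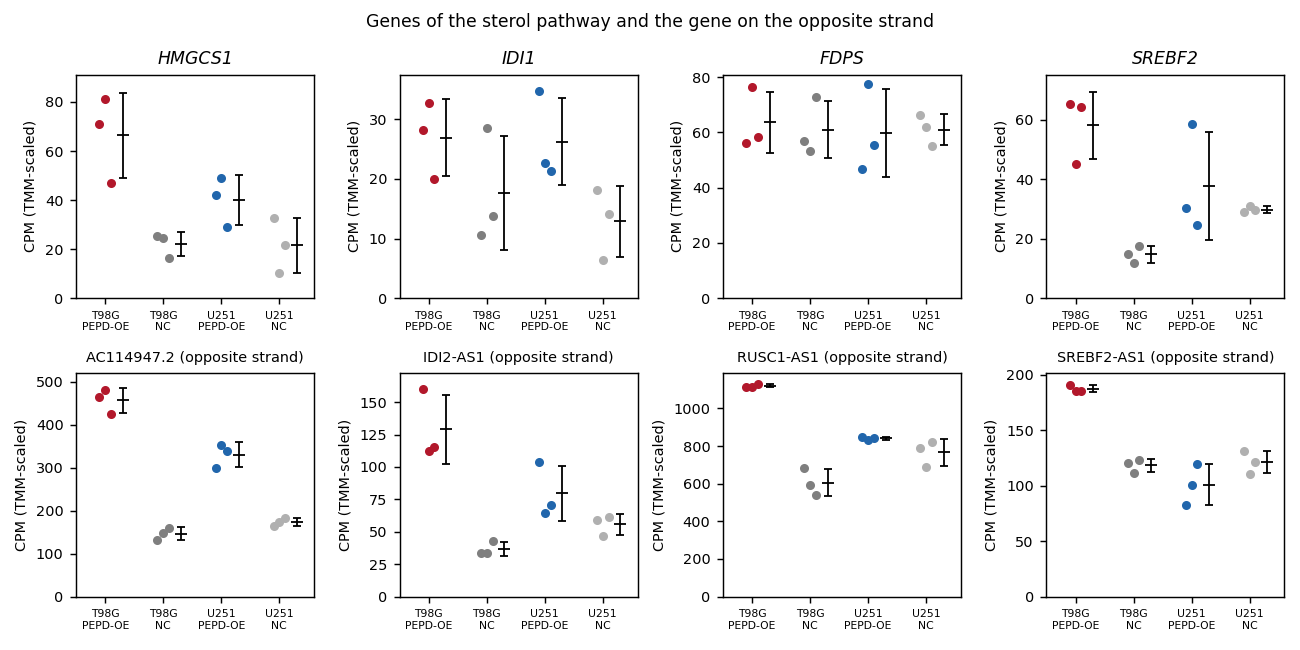
Level in every library (CPM on TMM-scaled libraries, vertical axes starting at 0) of 4 sterol pathway genes (top) and of the gene on the opposite strand of each (bottom), with the mean ± SD (n = 3) beside the points. In T98G all 4 partners are higher in PEPD-OE than in NC libraries, while HMGCS1 and SREBF2 are the called genes of the top row.

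With the genes that have any opposite-strand exon set aside, 5 sterol and 11 fatty acid genes remained among those tested. In T98G, INSIG1 and SQLE of the 5 and SCD, FASN and ACSL4 of the 11 kept their calls. In U251, SCD kept its call when these genes alone were scaled and tested, and INSIG1 had an adjusted p of 0.0593. HMGCS1, SREBF2, FADS1, FADS2, ACSL3 and ACAT2 have an opposite-strand neighbour, so their calls fell outside this check. The check covers known exon overlap only. Which strand was counted was not tested by it, and that setting bears on genes with and without a known neighbour alike.

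The response of T98G was set against that of U251 by the difference of the changes, the log2 fold change in T98G minus that in U251. Of the 27 genes tested, 6 were called with a positive difference and 1 with a negative one, while 27.7% of all genes were called in either direction. The share among these genes, 7 of 27, is near that background. The positive ones were SCD5 (1.91, SE 0.69, edgeR adjusted p = 0.0265), FADS2 (1.86, SE 0.42, edgeR adjusted p = 0.000194), SREBF2 (1.63, SE 0.40, edgeR adjusted p = 0.000621), SCD (1.31, SE 0.26, edgeR adjusted p = 2.55e-05), ACSL4 (1.12, SE 0.31, edgeR adjusted p = 0.00292) and FADS1 (0.94, SE 0.30, edgeR adjusted p = 0.0108). ACAT2 had the negative one (-1.59, SE 0.20, edgeR adjusted p = 1.27e-11). The difference of FADS1 was lost under DESeq2 (adjusted p = 0.0877). SCD5 was called in neither line alone, and its difference was lost without T98G PEPD-OE replicate 1, T98G NC replicate 1 or 3, U251 PEPD-OE replicate 3 or U251 NC replicate 2, with adjusted p-values of 0.0541 to 0.157. It was also lost under DESeq2 (adjusted p = 0.153) and with no filter (adjusted p = 0.0681). For HMGCS1 (0.75, SE 0.40, edgeR adjusted p = 0.157), INSIG1 (0.48, SE 0.52, edgeR adjusted p = 0.540) and FASN (0.40, SE 0.23, edgeR adjusted p = 0.207) the difference did not pass the test, so their larger change in T98G is not shown to differ from that in U251. Of the partners, AC114947.2 had a difference of 0.70 (edgeR adjusted p = 0.000892).

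Control cells of the lines also differed in some of these genes. This comparison shares the T98G NC and U251 NC libraries with those above. Of the 27 tested, 3 were higher in T98G NC than in U251 NC cells and 5 were lower, where 24.4% of all genes were called higher and 24.3% lower. The share called in either direction, 29.6%, is below the 48.7% of all genes. ACSL3 had 90.7, 136 and 118 CPM in T98G NC cells, against 51.8, 42.5 and 44.8 CPM in U251 NC cells (log2 fold change 1.34, SE 0.18, edgeR adjusted p = 1.36e-10). SCD5 had 2.11, 5.20 and 3.76 CPM in T98G NC cells, against 19.3, 30.9 and 17.9 CPM in U251 NC cells (log2 fold change -2.48, SE 0.49, edgeR adjusted p = 5.47e-06). Both pairs of groups stood well apart. ELOVL5, an elongase of polyunsaturated fatty acids, had 90.7, 93.6 and 85.3 CPM in T98G NC cells, against 131, 130 and 151 CPM in U251 NC cells (log2 fold change -0.61, SE 0.16, edgeR adjusted p = 0.000703). SREBF2 was lower in T98G NC than in U251 NC cells by the values above (log2 fold change -1.01, SE 0.33, edgeR adjusted p = 0.00672). The adjusted p of SREBF2 was 0.0549 without T98G NC replicate 2 and 0.0788 under DESeq2.

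The other calls between the control groups rested on fewer counts, and all 4 were lost under DESeq2, with adjusted p-values of 0.126 for FADS3, 0.138 for ELOVL6, 0.134 for ACSL1 and 0.196 for SQLE. FADS3 had 19.0, 9.10 and 11.3 CPM in T98G NC cells, against 32.5, 28.3 and 19.2 CPM in U251 NC cells (log2 fold change -1.11, SE 0.36, edgeR adjusted p = 0.00673). It was lost without T98G NC replicate 2 (adjusted p = 0.0626) or U251 NC replicate 1 (adjusted p = 0.0531). ELOVL6, which lengthens palmitate to stearate, had 25.3, 13.0 and 5.02 CPM in T98G NC cells, against 22.9, 27.1 and 32.0 CPM in U251 NC cells (log2 fold change -1.07, SE 0.35, edgeR adjusted p = 0.00782). The ELOVL6 groups overlapped, and its adjusted p was 0.193 without T98G NC replicate 3. ACSL1 had 0, 24.7 and 12.5 CPM in T98G NC cells, against 3.61, 5.15 and 2.56 CPM in U251 NC cells (log2 fold change 1.84, SE 0.57, edgeR adjusted p = 0.00445). The T98G NC libraries of ACSL1 span both sides of the U251 range, and without T98G NC replicate 2 the log2 fold change was 1.00 (adjusted p = 0.294). SQLE had 21.1, 14.3 and 11.3 CPM in T98G NC cells, against 10.8, 3.86 and 6.40 CPM in U251 NC cells, barely apart (log2 fold change 1.04, SE 0.45, edgeR adjusted p = 0.0476). Its call was lost without T98G NC replicate 1 or 2, U251 NC replicate 2 or 3, or replicate 2 of either PEPD-OE group, with adjusted p-values of 0.0505 to 0.206.

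Genes beside these pathways were counted from 2 further lists. Of 28 genes of sterol transport and control, 19 were tested, and in T98G 3 were higher in PEPD-OE cells and 0 lower, with a median log2 fold change of 0.27. Of all genes, 17.7% were called higher and 14.7% lower in T98G, so these counts are near the background. The 3 were TMEM97 (0.64, edgeR adjusted p = 0.00275), a membrane partner of the cholesterol carrier NPC1, NR1H2 (0.61, edgeR adjusted p = 0.0254), a nuclear receptor for oxysterols, and OSBP (0.59, edgeR adjusted p = 0.0478), an oxysterol-binding protein whose groups overlapped. At an unadjusted p under 0.05 edgeR had 5 higher and 0 lower, and DESeq2 called 0 of this list in T98G (3 higher and 1 lower unadjusted). In U251 edgeR called 0 of the 19 (1 higher and 0 lower unadjusted), and DESeq2 called 0 (0 unadjusted) with an adjusted p for 3 genes of the list. Of 34 genes of fatty acid supply, elongation and use, 17 were tested, of which 2 were higher and 1 lower in T98G and 1 higher and 1 lower in U251. These counts too are near or below the shares of all genes, which were 4.13% higher and 4.42% lower in U251. In T98G, PNPLA2, the triglyceride lipase of lipid droplets, rose to 67.9 CPM in PEPD-OE cells, against 32.5 CPM in NC cells (log2 fold change 1.14, SE 0.24, edgeR adjusted p = 4.05e-05). HADHA, a subunit of the mitochondrial beta-oxidation complex, rose by 0.68 on the log2 scale (edgeR adjusted p = 0.00390). CPT1A, which brings fatty acids into mitochondria, fell to 45.1 CPM in T98G PEPD-OE cells, against 80.9 CPM in T98G NC cells (log2 fold change -0.86, SE 0.21, edgeR adjusted p = 0.000367). In U251, LPCAT3, which puts polyunsaturated chains into phospholipids, rose by 0.62 (edgeR adjusted p = 0.00309), and PLIN3, a lipid droplet coat gene, fell by 0.59 (edgeR adjusted p = 0.0391). Under DESeq2 the calls of PNPLA2, CPT1A and LPCAT3 held, while those of HADHA (adjusted p = 0.074) and PLIN3 (adjusted p = 0.122) were lost. The other 14 genes tested in T98G and 15 in U251 passed no test.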

How the data were processed

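Per the labels, polyadenylated RNA was captured on beads, dUTP marked the second cDNA strand, and paired-end reads were taken on a NovaSeq instrument. The authors deposited raw counts per Ensembl gene for 63241 genes, 1 column of whole numbers per library, with no normalization. Per the submitters' processing notes, FastQC, fastp, HISAT2, featureCounts, Subread and GRCh38 were used; the sources used here give no version, annotation release or strand setting.

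Counts were tested in R 4.3.3 with edgeR 4.0.16 (quasi-likelihood, robust), with filterByExpr at a minimum count of 10, TMM scaling and 1 mean per group over all 12 libraries (8 residual degrees of freedom). P-values are two-sided and adjusted over the 8773 genes tested, and the SE is the log2 fold change divided by the root of F. An exact test of 3 against 3 cannot go below 0.1, so single values got no test of their own. The script was checked on simulated counts. Positions, exon lengths and opposite-strand overlaps came from GENCODE release 29, promoter windows from RefSeq. All 12 columns were matched to samples by library name, no replicate pair agreed within sampling noise, and errors of CPM values are SDs over 3 libraries.

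The members, pathway lists and motifs were chosen with earlier results of these data known. By the rule for named genes, each member called in any contrast is given with its libraries in that contrast, and the others by class. PEPD, BEST1, FTH1, TCP1, SOD2, the noncoding partners and the sterol sum without ACAT2 fall outside it, were chosen after their values were seen or for a check, and support nothing. Uncalled members are also named where their groups stood apart. Alternatives were RLE and upper-quartile scaling, TMM without TALAM1, MALAT1, BEST1 and the mitochondrial genes, DESeq2 1.42.0, no filter, a filter of 1 CPM in 3 libraries, only the groups compared, a replicate block, robust estimation off, genes without opposite-strand overlap, and each library left out.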

Additional observations from a re-analysis of the deposited data

Results flagged for a closer look

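For 7 of the 27 genes tested the change under PEPD over-expression differed between T98G and U251 by the test of the difference itself, given as the T98G log2 fold change minus the U251 one with edgeR's quasi-likelihood test. The difference was 1.91 for SCD5, 1.86 for FADS2, 1.63 for SREBF2, 1.31 for SCD, 1.12 for ACSL4 and 0.94 for FADS1, and -1.59 for ACAT2. In all 3 T98G PEPD-OE libraries the first 6 genes lay above, and ACAT2 below, every T98G NC library. In U251 the libraries of SCD5, FADS2, SREBF2, ACSL4 and FADS1 overlapped between PEPD-OE and NC cells, while those of SCD and ACAT2 did not. The share, 7 of 27, is near the 27.7% of all genes called for this difference. Under DESeq2 the difference was lost for FADS1 (adjusted p = 0.0877) and SCD5 (adjusted p = 0.153), and that of SCD5 was also lost with no filter and without any of 5 libraries in turn.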

How the results depend on the processing

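Of the 29 calls given for single genes, 18 held in every setting run, and over 614 pairs of call and setting 557 held, 57 fell short of the threshold and 0 changed sign. All 10 T98G calls other than SQLE held throughout. With genes without opposite-strand overlap alone, 2 sterol and 3 fatty acid genes were called in T98G and 3 genes for the difference between the lines, since fewer genes are tested there. In U251, the sterol calls were 1 under RLE scaling, 1 under the 1 CPM filter, 1 with robust estimation off, and 0 under DESeq2, with no filter and with genes without overlap. The U251 fatty acid calls were 0 under DESeq2, with no filter, under the 1 CPM filter and with only the groups compared. Beside these zeros, genes at an unadjusted p under 0.05 were 3 sterol and 2 fatty acid genes under DESeq2, 4 and 5 with no filter, 1 sterol gene with genes without overlap, 5 fatty acid genes under the 1 CPM filter and 5 with only the groups compared. In U251 DESeq2 gave an adjusted p to 3 of 23 sterol and 7 of 15 fatty acid genes and none to HMGCS1 and INSIG1, whose unadjusted p-values were 0.0308 and 0.0344, and called 4 genes between the control groups, including TM7SF2, which the filter had kept from edgeR. Apart from the construction of the overlap setting, the cause of these shifts was not tested.

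With 1 library left out in turn, the T98G calls were 4 to 5 sterol and 6 to 7 fatty acid genes, the U251 calls 0 to 3 and 0 to 1, those for the difference between the lines 6 to 8 and those between the control groups 5 to 8, the lowest without T98G NC replicate 2. Over the whole table DESeq2 called 948 genes higher and 743 lower in T98G, against 1551 and 1286, and with no filter U251 had 244 higher and 257 lower, against 362 and 388. Deviations of same-numbered PEPD-OE and NC libraries from their group means had correlations of -0.0417 to 0.0582 across genes, and the numbers are not taken to pair the samples. At counts this low, counting noise could hide a shared deviation, so the check cannot exclude pairing. With the replicate block the calls were 5 sterol and 6 fatty acid genes in T98G, 3 and 1 in U251, 7 for the difference and 8 between the controls. Of the 23 sterol genes, 11 were under the filter of the main test, while all 15 fatty acid genes passed it, and the reason was not tested.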
